A study of Mus musculus with 6 samples.

Results

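Hox genes are homeobox genes, which encode transcription factors, and in the mouse they lie in 4 clusters, HoxA to HoxD. Their members were taken from the deposited table by name: every gene symbol made of Hox, a cluster letter and a paralogue number was kept, which gave 39 of the 23284 genes listed, over 13 paralogue groups. RNA-seq had been made from heart ventricles at E9.5 of 3 WT and 3 KD embryos of the C57BL/6 strain (C57BL/6 J for the ES cells). Both groups were tetraploid chimeras, in which the embryo proper derives from injected ES cells. The WT embryos came from wild type ES cells. The KD embryos came from ES cells in which both alleles of the lncRNA gene Tbx5ua carry tandem polyadenylation signals, given in the labels as Tbx5ua -/-, and which of the edited lines gave which embryo is not given in the sources used here. The table holds 1 value per gene and group, in FPKM, the fragments counted on a gene, divided by the length of its transcript and by the total of mapped fragments. No value of a single embryo was used here, so no SD or replicate spread can be given for any gene below. The authors' own test in the same table was not used, and differences are described without a test. Each value is the authors' group value. The level of Tbx5ua itself was not analysed here.

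Along each cluster the genes are numbered from the 3′ to the 5′ end. Low-numbered genes are switched on early and in more anterior parts of the embryo, and high-numbered genes later and in the trunk, tail and limbs. In the heart, low-numbered members such as Hoxb1 and Hoxa3 are known from posterior second heart field progenitors, which contribute to the outflow tract and the atria. Hox proteins bind DNA together with Pbx, Meis and Pknox cofactors of the TALE homeobox family.

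Most Hox genes were listed at 0 or at traces in these ventricles. In WT, 9 of the 39 members (23.1%) had a value above 0, against 70.5% of all genes in the table. In KD, 24 members (61.5%) had one, against 71.7% of all genes. A level of at least 1 FPKM in either group was reached by 1 member, Hoxb2, against 49.8% of all genes. A 0 in this table need not be a measured absence, since Actc1, the cardiac actin gene, was also listed at 0 in both groups. The depth of the libraries is unknown, so no limit can be given below which a gene would be missed.

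**Figure D1:**
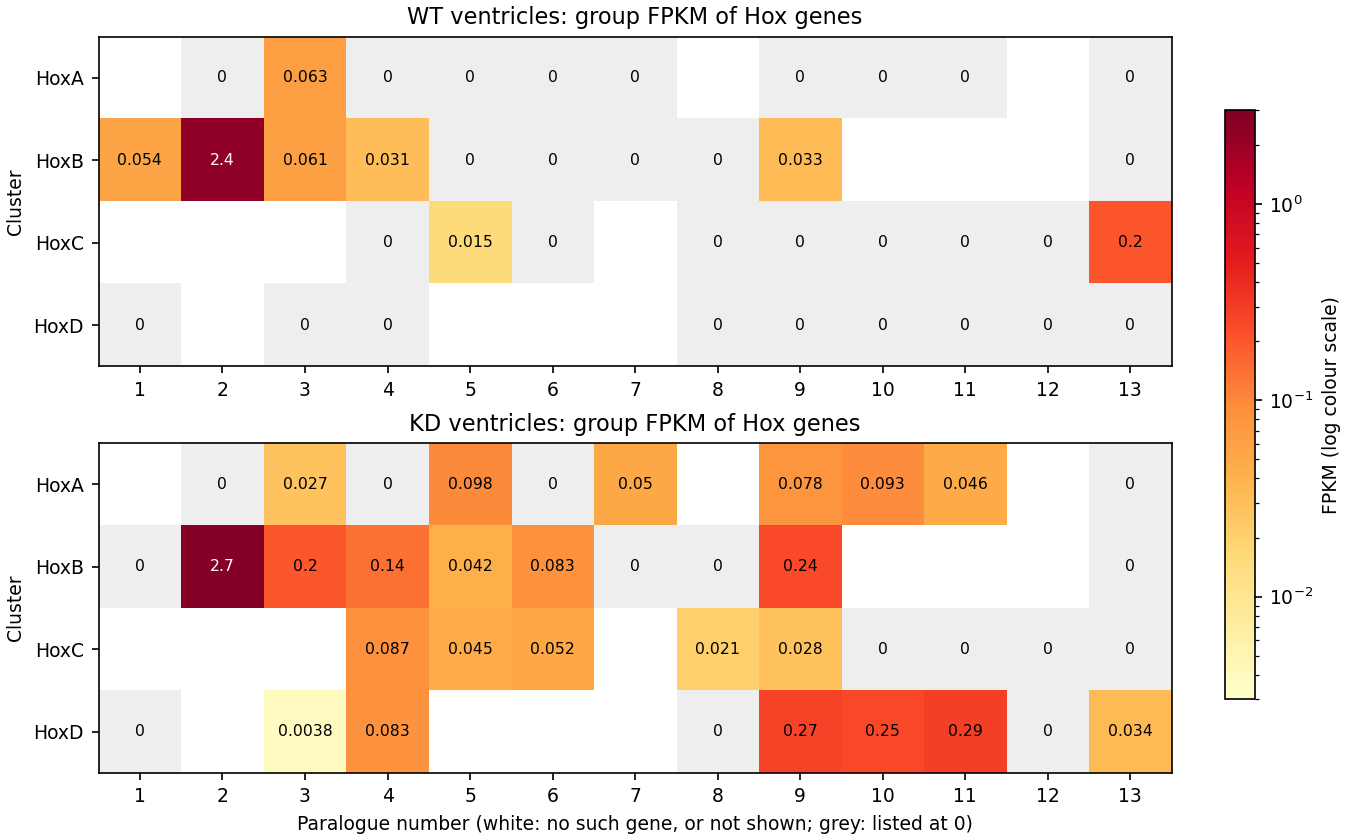
Group FPKM of the Hox genes in WT ventricles (upper grid) and KD ventricles (lower grid), with clusters as rows and paralogue numbers as columns, on a log colour scale with the value printed in each field. Grey fields are genes listed at 0, white fields have no gene or are not shown, and Hoxb2 is the darkest field in both grids, at 2.385 FPKM in WT against 2.711 FPKM in KD.

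Hoxb2 was the Hox gene with the highest value in both groups. It acts in the hindbrain, where it patterns the rhombomeres from which cranial nerve neurons and neural crest arise. It was listed at 2.385 FPKM in WT against 2.711 FPKM in KD. The difference was 0.13 on the scale of log2(FPKM + 1) and 0.19 as a log2 ratio. Hoxb2 made up 78.5% of the summed FPKM of all Hox genes in WT and 53.1% in KD. Its level was modest beside the rest of the table: 59.0% of genes lay below it in WT and 60.1% in KD, and the median of genes with at least 1 FPKM was 10.3 FPKM and 10.1 FPKM. With 1 added to the start in the table, its locus is chr11:96351632-96354014 (mm10, plus strand) in the HoxB cluster. For Hoxb2 it is the start without that addition that matches a transcript of the GENCODE annotation.

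Reads of Hoxb2 cannot all be told from reads of a neighbour on the other strand. Smart-Seq2 libraries do not mark strand, and in the GENCODE annotation 953 of the 3488 exonic bases of Hoxb2 (27.3%) lie under exons of the antisense RNA Hoxb3os. Of the 1579 stretches of 50 bases in the protein-coding transcript, 904 (57.3%) also occur in a Hoxb3os transcript, and 0 occur in another Hox gene. Hoxb3 shares even more of its exonic bases with Hoxb3os (52.9%), and its values were 0.0606 FPKM in WT against 0.197 FPKM in KD. The part of Hoxb3os reads in the value of Hoxb2 was not tested.

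The homeobox, the most conserved part of these genes, was compared to see how far other Hox genes could take reads of Hoxb2. All 39 homeoboxes were found in GENCODE transcripts, each of 180 bases. Identity to the Hoxb2 homeobox ran from 51.1% to 77.8%. The closest was that of Hoxd3, with a longest shared run of 28 bases. Hoxa2, the other member of the same paralogue group, differed at 46 bases (74.4% identity). The homeoboxes of this paralogue group are printed 5′ to 3′ on the coding strand. Capitals mark the bases at which they differ from each other.
Hoxb2: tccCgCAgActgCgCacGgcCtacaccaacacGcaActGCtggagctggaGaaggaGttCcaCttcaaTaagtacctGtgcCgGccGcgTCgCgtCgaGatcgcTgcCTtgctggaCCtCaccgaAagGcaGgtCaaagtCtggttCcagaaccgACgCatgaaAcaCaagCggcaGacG
Hoxa2: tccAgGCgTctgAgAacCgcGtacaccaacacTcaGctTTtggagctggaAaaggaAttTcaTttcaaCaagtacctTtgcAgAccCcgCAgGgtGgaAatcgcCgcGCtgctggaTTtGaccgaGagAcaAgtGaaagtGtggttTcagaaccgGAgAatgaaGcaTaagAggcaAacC
In these ventricles Hoxd3 was listed at 0 in WT and at 0.00379 FPKM in KD, and Hoxa2 at 0 in both groups. Longer shared stretches, searched from the protein-coding transcripts of a member in any transcript of another, were few. Of Hoxd3, 339 stretches of 50 bases (8.78%) also occur in Hoxd4, and of Hoxc10, 119 (6.4%) in Hoxc5, in both cases in a transcript of the latter that is not protein-coding, and 5 more members share 1 to 3 such stretches.

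The members other than Hoxb2 were far lower. In WT, 8 of these 38 were above 0, from 0.0154 FPKM for Hoxc5 to 0.203 FPKM for Hoxc13, with a median of 0.0574 FPKM. In KD, 23 were above 0, from 0.00379 FPKM for Hoxd3 to 0.289 FPKM for Hoxd11, with a median of 0.0826 FPKM. A level of at least 0.1 FPKM was reached by 2 of the 38 in WT, Hoxc13 among them, and by 7 in KD.

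The groups differed in how many of these traces were listed. A value above 0 in KD and 0 in WT was listed for 17 members (43.6%), against 4.14% of all genes. The reverse was listed for 2 members (5.13%), Hoxb1 and Hoxc13, against 2.92% of all genes. Both groups were above 0 for 7 members and both at 0 for 13. Hox genes are low, and low genes are the ones that can be at 0. The members were therefore also set beside other low genes, those above 0 in a group and at most 0.3 FPKM in both. A gene at 0 in WT enters this range only through its KD value, and a gene at 0 in KD only through its WT value. Levels within the range were not matched either, so the shares below describe the listing and test nothing. Of the 25 Hox genes in that range, 17 (68.0%) were above 0 in KD alone, against 22.9% of the 3967 such genes in the table. In WT alone it was 2 of 25 (8.0%), against 15.9%. With 0.1 FPKM as the upper limit, 14 of 17 Hox genes (82.4%) were above 0 in KD alone, against 772 of 2380 genes (32.4%). Both limits were chosen after the values had been seen.

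**Figure D2:**
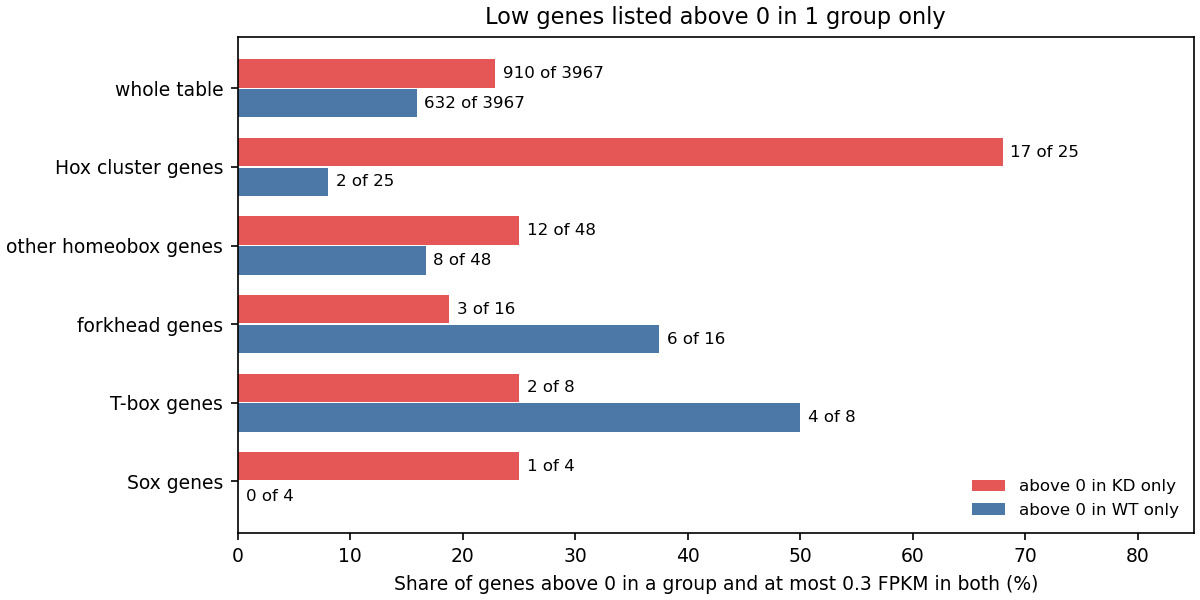
Share, in percent, of genes above 0 in KD only (red) and in WT only (blue) among genes above 0 in a group and at most 0.3 FPKM in both, for the whole table, the Hox genes and other transcription factor families, with the counts beside the bars. The Hox genes have 17 of 25 in KD only, and the other homeobox genes have 12 of 48.

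Other families of developmental transcription factors, taken by name after values had been seen, held fewer such genes. Among 136 homeobox genes outside the Hox clusters, 48 were in the same low range, with 12 (25.0%) above 0 in KD alone and 8 (16.7%) in WT alone. Of 16 low forkhead genes 3 were above 0 in KD alone and 6 in WT alone, of 8 low T-box genes 2 and 4, and of 4 low Sox genes 1 and 0. Neighbouring Hox genes are switched on together, so the 17 members are not independent of each other. Whether the traces came from 1 KD embryo or from all 3 cannot be told apart in a group value. In RNA from whole ventricles, a few cells with a high level and many cells with a low level cannot be told apart either.

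No change of level can be read from most of these values. On the log2(FPKM + 1) scale, among genes with at least 1 FPKM in either group, 0 of 1 member differed by more than 2-fold, and 142 of 11606 genes in the table did (1.22%). With 0.1 added in place of 1 and no limit on the level, 4 members were more than 2-fold higher in KD, against 2.79% of all genes: Hoxd11 (1.96 on that log2 scale), Hoxd9 (1.89), Hoxd10 (1.81) and Hoxb9 (1.36). On the same scale 1 member was more than 2-fold lower, Hoxc13 (-1.60), against 1.98% of all genes. These log2 differences depend on the added constant, since 1 group was listed at 0 for each of them but Hoxb9. That of Hoxb9 depends on it too, and was 0.27 with 1 added.

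**Figure D3:**
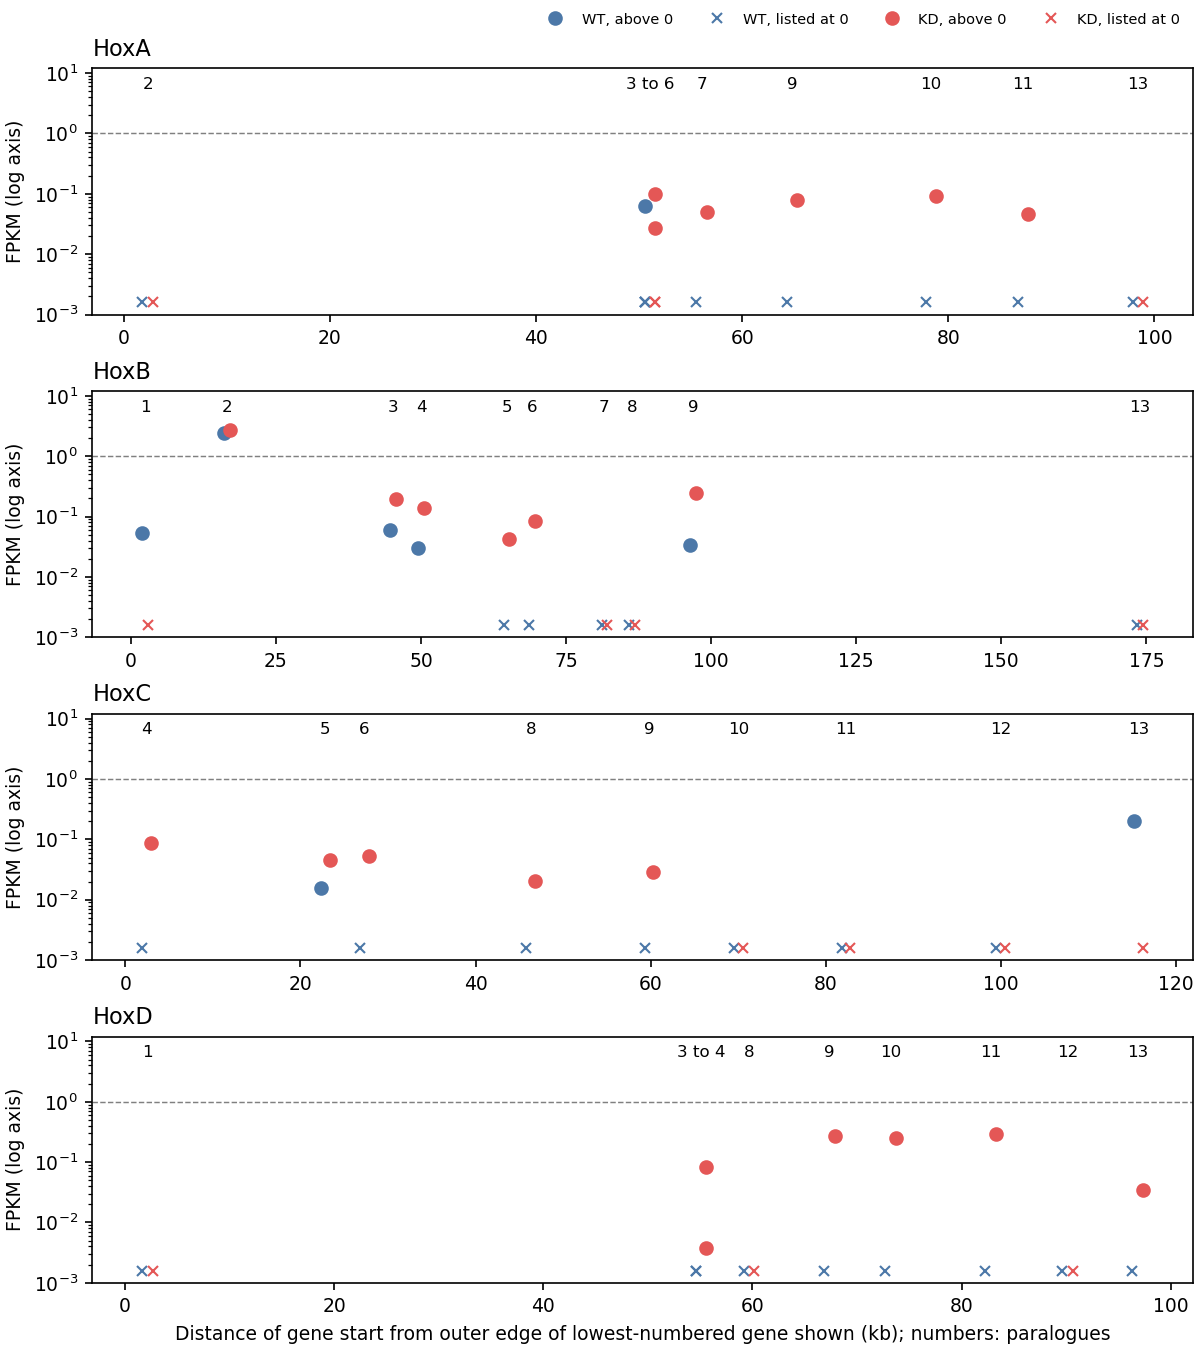
FPKM on a log axis (WT blue, KD red) against distance in kb of the gene start from the outer edge of the lowest-numbered gene shown, in 1 panel per cluster, with paralogue numbers along the top and crosses at the bottom for genes listed at 0. Genes that share a locus in the table stand at 1 place; in HoxD all WT marks are crosses, and 6 KD values are above 0.

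The HoxD cluster was listed at 0 throughout in WT and above 0 for 6 of its 9 members in KD. Its genes span chr2:74668310-74765142 and pattern the trunk, the limb and the genital bud. The highest values were those of the neighbours Hoxd9, Hoxd10 and Hoxd11. Hoxd9 was listed at 0 in WT and 0.271 FPKM in KD. Hoxd10 was listed at 0 in WT and 0.250 FPKM in KD, and Hoxd11, which shapes the forearm together with Hoxa11, at 0 and 0.289 FPKM. These were the members with the highest values of the 17. Of the stretches of 50 bases in Hoxd11, 218 of 1062 (20.5%) also occur in transcripts of another gene, Gm28309. For Hoxd10 it was 56 of 1767 (3.17%), with the same gene, and for Hoxd9 it was 0 with any gene. The part of Gm28309 reads in these values was not tested. The KD values of Hoxd4 (0.0826 FPKM), Hoxd13 (0.0339 FPKM) and Hoxd3 (0.00379 FPKM) were lower. Hoxd3 and Hoxd4 share 1 locus in the table with other genes, so their values are uncertain. Hoxd1, Hoxd8 and Hoxd12 were at 0 in both groups. The cluster summed to 0 in WT and 0.929 FPKM in KD.

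The promoters of these neighbouring genes are shown because the genes were listed together in KD. The sequences come from RefSeq on GRCm38.p6 and give the 250 bases before the start of transcription, on the plus strand, which is the coding strand. The window of 250 bases before to 50 after the start was searched on both strands for the TATA box (TATAAA), a joint Pbx and Hox site (TGATNNAT), a Meis site (TGACAG), a nuclear receptor half-site (AGGTCA) and a Cdx site (TTTATG). Capitals mark a match, which is the half-site in Hoxd10 and the joint Pbx and Hox site in Hoxd11. In Hoxd9 none of these letters was matched in the stretch shown. Hoxd11 has a second start in RefSeq, not shown.
Hoxd9 (chr2:74697513-74697762): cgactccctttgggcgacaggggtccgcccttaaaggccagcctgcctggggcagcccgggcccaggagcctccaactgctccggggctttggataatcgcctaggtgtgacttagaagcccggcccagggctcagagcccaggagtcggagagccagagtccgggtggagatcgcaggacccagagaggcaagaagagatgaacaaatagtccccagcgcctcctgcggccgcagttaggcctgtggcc
Hoxd10 (chr2:74691641-74691890): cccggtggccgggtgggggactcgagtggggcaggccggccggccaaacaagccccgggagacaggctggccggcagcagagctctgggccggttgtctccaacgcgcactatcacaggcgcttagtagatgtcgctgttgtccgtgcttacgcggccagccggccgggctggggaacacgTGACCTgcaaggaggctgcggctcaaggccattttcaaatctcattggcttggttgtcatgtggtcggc
Hoxd11 (chr2:74682073-74682322): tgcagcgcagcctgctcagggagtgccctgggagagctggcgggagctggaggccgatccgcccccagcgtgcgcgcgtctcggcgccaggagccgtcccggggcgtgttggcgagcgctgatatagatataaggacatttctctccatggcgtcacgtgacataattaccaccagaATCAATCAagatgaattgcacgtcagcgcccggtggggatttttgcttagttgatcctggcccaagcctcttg
RefSeq promoters were matched for 22 of the 39 members, with 24 starts, among 32851 promoters of the table. The half-site occurred in 7 of the 24 Hox promoters and 16.3% of all promoters, the joint Pbx and Hox site in 4 and 8.85%, and the Cdx site in 5 and 11.9%. The TATA box occurred in 4 Hox promoters and 13.6% of all, and the Meis site in 2 and 19.2%. The median GC content was 57.7% in the Hox promoters and 52.7% in all promoters, and the median number of CpG pairs was 14.5 and 7. A match in such letters is not a measured binding site.

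In HoxA, 2 of 11 members were above 0 in WT and 7 in KD, with 5 above 0 in KD alone. Hoxa3, which patterns the pharyngeal arches, was listed at 0.0630 FPKM in WT against 0.0273 FPKM in KD. Of the 6 members that had values in both groups besides Hoxb2, 4 were higher and 2 lower in KD, with Hoxa3 among the lower. The 5 members at 0 in WT ran from 0.0460 FPKM for Hoxa11 to 0.0981 FPKM for Hoxa5 in KD, with Hoxa7 at 0.0502 FPKM, Hoxa9 at 0.0784 FPKM and Hoxa10 at 0.0935 FPKM between them. Hoxa9 is best known from blood progenitors and Hoxa5 from the lung and trachea. Hoxa2, Hoxa4, Hoxa6 and Hoxa13 were at 0 in both groups. Hoxa3, Hoxa4, Hoxa5 and Hoxa6 share 1 locus in the table, so the division of reads among them is uncertain. Hoxa11 overlaps its antisense gene Hoxa11os over 35.0% of its exonic bases.

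HoxB had the most members above 0 in WT, 5 of 10, and 6 of 10 in KD. It spans chr11:96194361-96368253. Of those with values in both groups, Hoxb3, which acts in the hindbrain and pharyngeal region, was listed at 0.0606 FPKM in WT against 0.197 FPKM in KD. Hoxb4, known from blood stem cells, was listed at 0.0306 FPKM and 0.139 FPKM. Hoxb9, a gene of the thoracic region, was listed at 0.0332 FPKM and 0.243 FPKM, the widest ratio among the members above 0 in both groups. Hoxb5 (0.0424 FPKM) and Hoxb6 (0.0829 FPKM) were above 0 in KD alone. Hoxb1, the activator of Hoxb2 in the hindbrain, went the other way, with 0.0542 FPKM in WT and 0 in KD. Hoxb7, Hoxb8 and Hoxb13 were at 0 in both groups. Without Hoxb2 the cluster summed to 0.179 FPKM in WT against 0.704 FPKM in KD.

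HoxC, which has no members numbered below 4, had 2 of 9 members above 0 in WT and 5 in KD. It spans chr15:102921131-103036852. Hoxc13, a gene of the tail, nails and hair follicles, had the highest WT value after Hoxb2, 0.203 FPKM, and was listed at 0 in KD. Hoxc5, whose locus in the table is shared with another gene, was listed at 0.0154 FPKM in WT against 0.0453 FPKM in KD. Above 0 in KD alone were Hoxc4 (0.0872 FPKM), Hoxc6 (0.0524 FPKM), Hoxc9 (0.0284 FPKM) and Hoxc8 (0.0205 FPKM), which pattern the neck and thorax. Hoxc10, Hoxc11 and Hoxc12 were at 0 in both groups. The sums of the cluster lay close together, 0.218 FPKM in WT against 0.234 FPKM in KD, with Hoxc13 making up most of the sum in WT and none of it in KD.

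**Figure D4:**
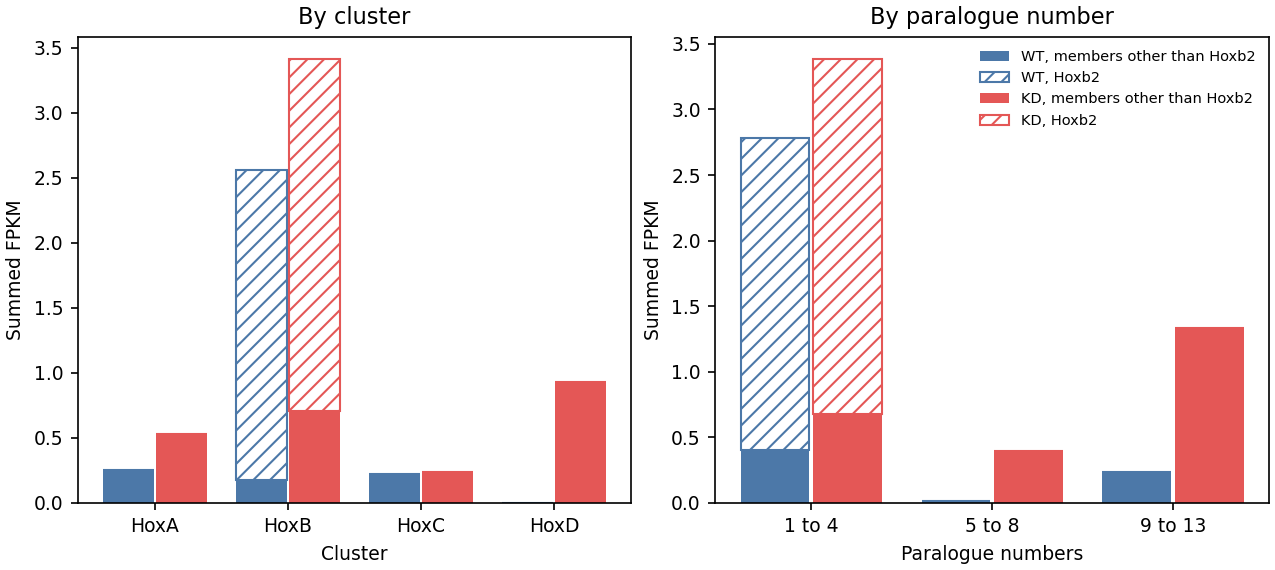
Summed FPKM of the Hox genes by cluster (left) and by paralogue number (right) in WT (blue) and KD (red), with Hoxb2 drawn as a hatched part of the bar. Without Hoxb2 the largest sum is that of paralogues 9 to 13 in KD, 1.33 FPKM, and HoxD has no WT bar because all its genes are listed at 0.

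By paralogue number, the WT values were mostly at the anterior end of the series. Of the 12 members numbered 1 to 4, 6 were above 0 in WT and 8 in KD, and without Hoxb2 they summed to 0.402 FPKM and 0.674 FPKM. Of the 11 numbered 5 to 8, 1 was above 0 in WT and 7 in KD, with sums of 0.0154 FPKM and 0.392 FPKM. Of the 16 numbered 9 to 13, 2 were above 0 in WT and 9 in KD, with sums of 0.236 FPKM and 1.33 FPKM. Members above 0 in KD alone thus numbered 3, 6 and 8 in these bands. Spearman's rho between paralogue number and FPKM over the 39 genes was -0.38 in WT and -0.17 in KD, a description across genes that share libraries and many zeros.

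Single paralogue groups followed different courses. All 4 members of group 9, Hoxa9, Hoxb9, Hoxc9 and Hoxd9, were above 0 in KD, with a sum of 0.620 FPKM against 0.0332 FPKM in WT. Group 10 summed to 0 in WT and 0.343 FPKM in KD, and group 11 to 0 and 0.335 FPKM. Group 4 summed to 0.0306 FPKM and 0.309 FPKM. Not every group had its higher sum in KD, and group 13 was among those with the higher sum in WT, 0.203 FPKM against 0.0339 FPKM. Both genes of group 12 were at 0 in both groups. Over all members the sum was 3.04 FPKM in WT against 5.11 FPKM in KD, a log2 ratio of 0.75. The ratio was 1.88 without Hoxb2, 0.46 without the HoxD cluster and 1.17 without both.

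Of the 12 genes of the table that lie within the cluster spans and are no Hox gene of the rule, 0 were above 0 in WT and 4 in KD. Gm53 in HoxB was listed at 0.344 FPKM in KD and Mira in HoxA at 0.194 FPKM. The others were 1700109F18Rik in HoxD (0.0462 FPKM) and 2700086A05Rik in HoxA (0.0395 FPKM). The former shares its locus in the table with Hoxd3 and Hoxd4, and the latter with Hoxa3, Hoxa4, Hoxa5 and Hoxa6, so their values are uncertain too. Hotair, a long non-coding RNA of HoxC, and Hoxa11as were at 0 in both groups, as were 6 microRNA genes of the miR-10, miR-196 and miR-615 families. Precursors of microRNAs are short, and a library of full-length cDNA is not made to hold mature microRNAs.

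Genes beside the clusters lay at other levels, and those with at least 1 FPKM differed little. Of 29 genes listed as neighbours of the clusters 26 were matched, 3 of them at 0 in both groups. Of the 26, 0 differed by more than 2-fold or 1.5-fold on the log2(FPKM + 1) scale, which shrinks differences between low values. Among the low ones, Skap1 was listed at 0.135 FPKM in WT against 0.423 FPKM in KD, and Calcoco2 at 0.0273 FPKM in WT and 0 in KD. Across all genes of the table with at least 1 FPKM, 2.2% were past 1.5-fold higher in KD and 1.46% lower. The highest were Atp5g3 in WT (1283 FPKM, and 1283 FPKM in KD) and Atp5g1 in KD (1296 FPKM, and 1248 FPKM in WT). Evx1 and Evx2, the homeobox genes next to HoxA and HoxD at their 5′ ends, were at 0 in both groups. Mtx2, on the 3′ side of HoxD, was listed at 194 FPKM and 176 FPKM.

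The partners of Hox proteins had clear levels in both groups. All 9 TALE cofactors reached 1 FPKM, and 0 of them differed by more than 1.5-fold, with a median difference of -0.08 on the log2(FPKM + 1) scale against 0.0043 over the 11606 genes. The highest was Meis1 (18.5 FPKM in WT against 21.3 FPKM in KD), followed by Meis2 (12.5 FPKM and 11.3 FPKM) and Pbx3 (11.1 FPKM and 9.93 FPKM). Of 22 listed Polycomb, trithorax and related chromatin regulators of Hox genes, 19 were measured, each with at least 1 FPKM. None of the 19 was past 1.5-fold, and their median difference was 0.01. Rnf2, the ubiquitin ligase of Polycomb complex PRC1, was the highest at 45.7 FPKM and 41.3 FPKM, and Ezh2, the methyltransferase of PRC2, was listed at 18.0 FPKM and 15.9 FPKM.

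Of 8 upstream regulators of Hox genes, 4 were above 0 in WT and 6 in KD. Of these 8, 1 reached 1 FPKM, and it was past 1.5-fold but not 2-fold higher in KD. Egr2, the hindbrain activator of Hoxb2, was listed at 0.111 FPKM in WT against 0.327 FPKM in KD. Gbx2 was listed at 0.0168 FPKM and 0.202 FPKM, and Cdx1 was at 0 in WT and 0.0377 FPKM in KD. Gdf11 had the lower value in KD, 0.673 FPKM against 0.853 FPKM in WT. Cdx2 and Cdx4, activators of trunk Hox genes, were at 0 in both groups.

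Retinoic acid induces Hox genes from the 3′ end of the clusters. Of 17 genes of its synthesis, breakdown and reception, 2 were past 1.5-fold higher in KD and 1 lower, and 1 was past 2-fold, Aldh1a1. Aldh1a1, a retinaldehyde dehydrogenase, was listed at 3.25 FPKM in WT against 10.3 FPKM in KD, a difference of 1.41 on the log2(FPKM + 1) scale. Cyp26b1, which degrades retinoic acid, was listed at 2.30 FPKM and 1.02 FPKM. The receptor gene Rara, the highest of this list in KD, was listed at 10.5 FPKM and 13.5 FPKM, and Crabp1, the highest in WT, at 10.6 FPKM and 11.2 FPKM. Aldh1a2, the main enzyme of retinoic acid synthesis in the embryo, was listed at 0.872 FPKM and 1.74 FPKM.

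Markers of the ventricle and of other tissues that express Hox genes were read beside these values. All 10 cardiomyocyte markers were above 0 and summed to 42935 FPKM in WT against 44540 FPKM in KD, with Myl7 the highest. Neural tube markers summed to 13.2 FPKM and 29.4 FPKM. Of these 9 genes, 6 were at 0 in both groups, Sox1, Sox2, Olig2, Neurog2, Nkx2-2 and Nkx6-1, and the sum was mostly Tubb3 (12.2 FPKM and 26.9 FPKM), with Sox3 at 0.853 FPKM and 2.51 FPKM and Pax6 at 0.171 FPKM and 0.0299 FPKM. Limb and lateral plate markers, 7 of 8 measured, summed to 45.0 FPKM and 51.9 FPKM, mostly from Prrx2 and Hand2, which the heart also expresses. In that list Osr1 was listed at 0.233 FPKM in WT against 0.673 FPKM in KD, and Prrx1 at 0.324 FPKM against 0.623 FPKM. Pitx1 (0.0536 FPKM) and Lmx1b (0.0606 FPKM) were above 0 in KD alone and Tbx4 (0.201 FPKM) in WT alone. Paraxial mesoderm markers summed to 0.393 FPKM and 0.596 FPKM, with Myf5, Pax9, Uncx and Msgn1 at 0 in both groups. Among them Meox1 (0.118 FPKM and 0.283 FPKM) and Tbx6 (0.139 FPKM and 0.240 FPKM) were higher in KD. Meox2 was at 0 in WT and 0.0160 FPKM in KD. Tcf15 (0.128 FPKM and 0.0518 FPKM) and Pax1 (0.00698 FPKM and 0.00500 FPKM) were lower in KD. Second heart field markers summed to 35.3 FPKM and 38.3 FPKM, with Foxc2 highest, Isl1 at 0.559 FPKM and 0.361 FPKM and Tbx1 at 0 in both. Neural crest markers summed to 10.4 FPKM and 11.1 FPKM, mostly from Ets1 (9.53 FPKM and 10.7 FPKM). Lower in KD were Dlx5 (0.363 FPKM and 0.134 FPKM), Dlx6 (0.328 FPKM and 0.178 FPKM), Tfap2a (0.0977 FPKM and 0.0895 FPKM) and Tfap2b. Sox10 (0.0170 FPKM and 0.0511 FPKM) and Pax3 (0.00356 FPKM and 0.00631 FPKM) were higher in KD, and Foxd3 was at 0 in both groups.

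Hepatic and yolk sac markers summed to 7.66 FPKM in WT against 10.2 FPKM in KD, led by Apoa2, with Alb, Hnf4a and Fgb at 0 in both groups, and foregut markers to 10.6 FPKM and 11.5 FPKM, led by Hhex, with Foxa1 and Shh at 0. Epicardial markers, all 7 above 0, summed to 47.5 FPKM and 97.5 FPKM, and 3 were past 2-fold higher in KD: Tcf21 (11.9 FPKM and 25.5 FPKM), Upk1b (9.17 FPKM and 22.1 FPKM) and Upk3b (7.80 FPKM and 20.7 FPKM). Past 1.5-fold in the same direction were also Bnc1 (0.439 FPKM and 1.62 FPKM) and Tbx18 (3.46 FPKM and 6.56 FPKM). The sums were 133 FPKM and 146 FPKM for 7 endothelial markers, of which Emcn was listed at 43.1 FPKM and 57.4 FPKM while Cdh5, Nfatc1 and Tek had lower values in KD. They were 11440 FPKM and 11516 FPKM for 6 erythroid markers, led by Hba-x in WT and Hbb-y in KD. Leukocyte and progenitor markers, 6 of 7 measured, summed to 4.39 FPKM and 4.13 FPKM, led by Kit. The part of any of these cell types in the Hox values was not tested.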

How the data were processed

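RNA-seq libraries were made from 10 ng of total RNA of heart ventricles of 3 WT and 3 KD embryos by the Smart-Seq2 protocol, with 12 cycles of preamplification and 9 of enrichment PCR. TopHat, Bowtie2, Cuffdiff and the mm10 build are named in the submitters' processing notes, and their versions are not given in the sources used here. The authors deposited 1 Cuffdiff table with 1 FPKM value per gene for each group, the KD group under the name KO. The depth is unknown. The table also holds the authors' own comparison (a status, a log2 fold change, a test statistic, a p-value, a q-value and a call), which was not used. There were 0 columns of per-sample values left unused.

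Because the values are pooled, no test was run, and the limma fits planned for single embryos were not made. Differences were taken as log2(FPKM + 1) in KD less that in WT, over genes with at least 1 FPKM in either group, and a gene was counted when past 2-fold. The members and the lists were chosen with earlier results of these data known. Values are given for members with at least 1 FPKM, the highest member of each cluster and paralogue group and members past 2-fold on any pseudocount. In the other lists the highest gene is named, for some lists without its value. Values are given there for genes past 1.5-fold with at least 1 FPKM, and for non-coding RNAs of the clusters above 0. Some genes that this rule names, a Hox gene among them, are not reported here and not drawn singly, but stay in counts and sums. Genes named beyond that rule were chosen after their values were seen. Of 25 listed non-coding RNA symbols of the clusters 8 were matched in the table, and 1 of these was above 0.

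Positions in the table were given with 1 added to the start: 13 Hox genes then match a transcript start of GENCODE release M21, and 1 does so as given. Overlaps, shared stretches of 50 bases and homeoboxes were computed from GENCODE release M21, and promoters were read from RefSeq. The count past 2-fold was tested on simulated data, at levels above those of the Hox genes other than Hoxb2. The count above 0 in 1 group alone was checked only on a few typed values. The software was pandas 2.3.3 and NumPy 2.4.6 for tables, SciPy 1.17.1 for rank correlation and Matplotlib 3.10.9 for figures, under Python 3.11.15.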

Additional observations from a re-analysis of the deposited data

How the results depend on the processing

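No paired analysis was possible because each group has only its pooled value, and for the same reason the limma fits with a replicate block and without each replicate were not run. The number of Hox genes listed went from 9 in WT and 24 in KD to 3 and 8 with at least 0.1 FPKM and to 1 and 1 with at least 1 FPKM, by construction. Without the genes of shared loci it was 7 and 18 of 31. With a dividing level in place of 0, at or above it in 1 group and below it in the other, the 17 in KD alone and 2 in WT alone became 6 and 1 at 0.1 FPKM, and 13 and 3 at 0.05 FPKM. These counts include members above 0 in both groups, and of the 17 only 3 reached 0.1 FPKM. No member was past 2-fold when 1 choice was changed at a time, and 5 were with a pseudocount of 0.1 and no filter together. For members other than Hoxb2 the former was fixed in advance. None of them exceeded 0.289 FPKM, so with 1 added they could not reach 2-fold, and the filter of 1 FPKM leaves them out. The median difference of 0.13, which is that of Hoxb2, became 0.18 with a pseudocount of 0.1, 0.0404 with no filter, 0.175 with at least 0.1 FPKM, 0.1151 with values scaled to the same total in each group and 0.27 with a pseudocount of 0.1 and no filter. The log2 ratio of the sums, 0.75, became 0.72 when scaled, 1.88 without Hoxb2, 0.185 with Hoxb2 alone, 0.70 without shared loci, 0.46 without HoxD and 1.17 without Hoxb2 and HoxD. No direction was reversed. The alternatives without HoxD, the joint change of pseudocount and filter, and those of the counts in 1 group alone were chosen after seeing the data. The unknown depth limits every value under 1 FPKM.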

Other observations

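Homeobox genes outside the Hox clusters differed widely in level. Among ParaHox and anterior homeobox genes, 3 of 11 were above 0 in WT and 5 in KD, and 0 were past 1.5-fold with at least 1 FPKM. Hesx1, a gene of the forebrain and pituitary, was the highest, with 0.917 FPKM in WT against 1.39 FPKM in KD. Otx2 was listed at 0.850 FPKM and 0.356 FPKM, and Otx1 at 0.152 FPKM and 0.367 FPKM. Emx2 (0.0182 FPKM) and En1 (0.0272 FPKM) were above 0 in KD alone, while Gsx1, Gsx2, Pdx1, Six3, Emx1 and En2 were at 0 in both groups. The Iroquois family, by contrast, was measured throughout, with all 6 genes above 1 FPKM in both groups. Irx4, a gene of ventricular identity, was the highest at 31.8 FPKM in WT against 27.6 FPKM in KD. Irx5 (7.14 FPKM and 14.6 FPKM) and Irx6 (2.89 FPKM and 6.11 FPKM), which are neighbours on chromosome 8, were past 1.5-fold higher in KD, and the family's median difference was 0.38 on the log2(FPKM + 1) scale.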
